A study of Mus musculus with 16 samples.

Results

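White and brown fat genes were followed through RNA of mouse quadriceps, the large muscle at the front of the thigh. The 33 genes were taken as a named list of adipocyte genes, fat-making (lipogenic) genes and brown fat genes, each looked up by its symbol among the 19108 genes of the files. All 33 were listed, and 32 had enough counts to be tested. The exception was Elovl3. The animals were C57BL/6 mice aged 6 months on regular chow, either wild type (WT) or ANT1(Tg)/+ (Tg), which carry a transgene for ANT1. ANT1 is the mitochondrial ADP/ATP carrier of muscle and heart, encoded by Slc25a4, and the promoter that drives the transgene is not given in the sources used here. Each of the 16 libraries is 1 mouse, with 4 of each sex in each genotype. Controls were of the same age and, where possible, littermates, and all mice lived at ambient temperature.

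White adipocytes store triglyceride in 1 large droplet coated by perilipin and CIDE proteins, release fatty acids by lipolysis, and secrete hormones such as leptin and adiponectin. Brown adipocytes share much of that programme but hold many mitochondria, and uncoupling protein 1 (UCP1) lets those mitochondria turn fuel into heat after noradrenaline has acted on beta-adrenergic receptors. Both kinds can make fatty acids from glucose, a pathway called de novo lipogenesis that can be very active in stimulated brown fat. Muscle fibres hold small droplets and use some of the same enzymes, while fat cells lie between and around the fibres.

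The DNA just upstream of 4 of these genes is shown because each stands for 1 side of the contrast: Adipoq for the white pattern, Ucp1 for the brown one, and Fasn and Acly for de novo lipogenesis. Each run is the 250 bases before the start of transcription, 5′ to 3′ on the gene's strand, from RefSeq promoters on GRCm38.p6, the assembly also called mm10. Capitals mark matches on either strand to the motifs searched.

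Adipoq, chr16:23146286-23146535, plus strand: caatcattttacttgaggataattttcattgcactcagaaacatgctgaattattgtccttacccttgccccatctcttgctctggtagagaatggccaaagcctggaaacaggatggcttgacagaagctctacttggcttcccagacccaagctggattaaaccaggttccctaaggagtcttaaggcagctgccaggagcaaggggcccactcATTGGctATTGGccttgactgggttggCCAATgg

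Ucp1, chr8:83290098-83290347, plus strand: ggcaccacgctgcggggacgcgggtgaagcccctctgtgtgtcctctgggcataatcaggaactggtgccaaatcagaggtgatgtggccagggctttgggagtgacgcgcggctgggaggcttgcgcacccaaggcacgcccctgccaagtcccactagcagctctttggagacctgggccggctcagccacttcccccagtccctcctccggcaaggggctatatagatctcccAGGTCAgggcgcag

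Fasn, chr11:120824548-120824797, minus strand: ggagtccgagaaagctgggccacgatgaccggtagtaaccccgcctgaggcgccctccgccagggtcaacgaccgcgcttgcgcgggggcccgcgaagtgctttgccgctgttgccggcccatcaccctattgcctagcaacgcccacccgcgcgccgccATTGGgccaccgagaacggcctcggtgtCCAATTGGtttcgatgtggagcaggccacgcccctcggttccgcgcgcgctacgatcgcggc

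Acly, chr11:100528001-100528250, minus strand: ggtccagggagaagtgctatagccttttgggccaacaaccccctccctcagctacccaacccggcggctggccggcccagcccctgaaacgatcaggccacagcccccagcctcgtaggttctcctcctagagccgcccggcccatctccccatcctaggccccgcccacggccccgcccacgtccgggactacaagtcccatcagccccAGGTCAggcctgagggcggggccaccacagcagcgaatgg

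The capitals in Adipoq and Fasn are CCAAT boxes (CCAAT), which in Fasn overlap as CCAATTGG. Those in Ucp1 and Acly are nuclear receptor half-sites (AGGTCA), the unit read by receptors such as PPAR gamma and thyroid hormone receptors. The search covered 250 bases upstream and 50 downstream of the start in 32851 promoters, among them those of 21 of the 33 genes. The half-site AGGTCA was present for Pparg, Ucp1, Acly, Elovl6 and Aqp7, and in 16.3% of all promoters. CCAAT was present for Adipoq, Plin4, Pparg, Fasn, Acly, Thrsp and Pnpla3, and in 37.4% of all promoters. TATAAA was present for Pparg, Cebpa and Dio2 (13.6% of all promoters), TTGCNNCAA, read by C/EBP factors and able to overlap CCAAT, for Dio2 and Thrsp (2.08%), and the E-box CACGTG for Lipe (7.15%). Neither the PPAR-type direct repeat AGGTCANAGGTCA (0.0396% of all promoters) nor the sterol regulatory element TCACNCCAC (1.24%) matched any of the 21. Not in the promoter table were Cidea, Fabp4, Lpl, Elovl3, Adrb3, Kcnk3, Slc36a2, Scd1, Dgat2, Mrap, Gpd1 and Car3.

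Library totals were 17.4 to 30.7 in units of 1000000 counts, so that 3 counts, the most that a count of 0 allows in a library, corresponded to 0.101 to 0.165 counts per 1000000 (CPM). These limits cover counting error only. CPM below are on library sizes scaled by the trimmed mean of M-values (TMM). Slc25a4 was 2792 to 3919 CPM in the 8 WT libraries and 8507 to 11040 in the 8 Tg libraries, and all 16 libraries matched their sex label. The sources used here describe each group as 4 animals. Libraries are numbered within a group in order of deposition, and a number does not link mice of different groups. Muscle markers (the sum of Acta1, Ckm, Myh4, Mb, Tnnt3 and Mylpf) made up 121100 to 218000 CPM in every library, so the fat genes were a minor signal in muscle RNA.

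A few libraries stood apart in fat genes, and they did so in both genotypes. WT female 1, WT female 2 and Tg female 4 held Ucp1 above 100 CPM. WT male 1 had the highest Adipoq and Lep but almost no Ucp1. WT male 2 and Tg male 4 were the lowest. These 3 Ucp1 libraries together with WT male 1 were the 4 highest libraries for 19 of the 33 genes, and WT male 2 with Tg male 4 were the 2 lowest for 16. In bulk muscle RNA, more fat cells in a sample and more of these RNAs per fat cell cannot be told apart.

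**Figure D1:**
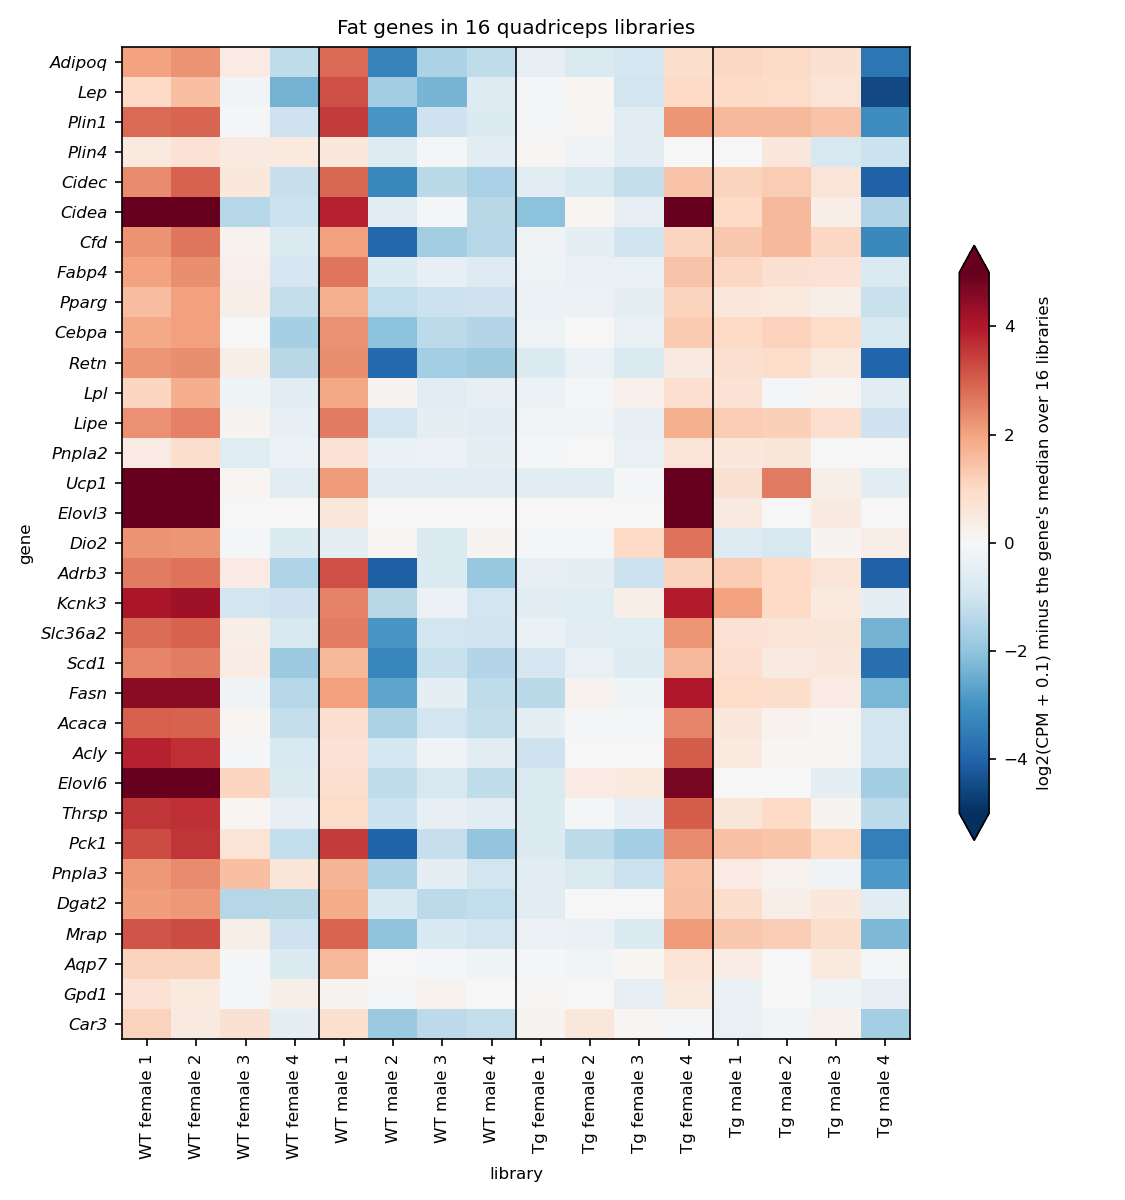
Levels of the 33 genes in the 16 libraries, as log2(CPM + 0.1) minus the gene's median over libraries; colours saturate at 5 in either direction and vertical lines separate the 4 groups. WT female 1, WT female 2 and Tg female 4 are dark for Ucp1, Elovl3, Cidea, Kcnk3, Fasn and Elovl6. WT male 1 is dark for Adipoq, Lep, Plin1 and Adrb3, and also for Cidea, though at 7.89 CPM it lies below those 3 libraries.

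Adipokines, the secreted products of fat cells, spread widely among mice of 1 group. Adipoq encodes adiponectin, an insulin-sensitising hormone made almost only by adipocytes (build mm10, chromosome 16, 23146536 to 23158028, plus strand). It was 187, 219, 61.1 and 19.0 CPM in the 4 WT females, 323, 4.48, 15.1 and 19.0 in the WT males, 34.4, 27.6, 25.1 and 83.9 in the Tg females, and 94.3, 89.2, 78.4 and 3.68 in the Tg males. All 4 groups overlapped, and the highest and lowest libraries were males of different genotypes. Lep encodes leptin, the satiety hormone. It was 11.2, 16.1, 5.12 and 0.993 CPM in WT females, 52.6, 1.62, 1.05 and 3.5 in WT males, 5.23, 5.97, 2.91 and 11.1 in Tg females, and 11.1, 10.7, 8.81 and 0.147 in Tg males. WT male 1 exceeded every other library for Lep, and Tg male 4 was lowest. Cfd (adipsin, a complement protease) ranged from 13.1 to 1263 CPM and Retn (resistin) from 1.18 to 99.8. Both of these were highest in WT female 2.

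Of the 4 droplet protein genes, Plin1 and Cidec were high and low in much the same libraries as Adipoq, while Plin4 varied less and Cidea went with Ucp1; both are described further on. Plin1, which coats the adipocyte droplet and gates lipolysis, was 94.6, 101, 12.8 and 6.45 CPM in WT females, 150, 1.72, 6.42 and 8.32 in WT males, 12.6, 14, 9.16 and 61.4 in Tg females, and 41.2, 41.6, 35.8 and 1.42 in Tg males. WT male 1 was again the highest and Tg male 4 the lowest. Cidec, which fuses droplets into a single large one, ranged from 2.06 to 278 CPM. The master regulators of fat cell formation, Pparg and Cebpa, ranged from 2.67 to 26.8 and from 3.57 to 73.0 CPM. Fabp4, a carrier of fatty acids inside the cell, ranged from 129 to 1511 CPM, and Lpl, the lipase that frees fatty acids from blood lipoproteins and is also made by muscle, from 242 to 1337. For 9 genes WT male 1 lay above all 3 Ucp1 libraries: Adipoq, Lep, Plin1, Fabp4, Cebpa, Lpl, Lipe (hormone-sensitive lipase), Adrb3 (the beta3-adrenergic receptor) and Aqp7 (a glycerol channel).

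Brown fat genes were split nearly into presence and absence. Ucp1 (build mm10, chromosome 8, 83290352 to 83298452, plus strand) was 143, 153, 0.0534 and 0 CPM in WT females, 0.535, 0, 0 and 0 in WT males, 0, 0, 0.0351 and 252 in Tg females, and 0.145, 0.762, 0.0760 and 0 in Tg males. In counts, these were 4269, 2932 and 6114 in WT female 1, WT female 2 and Tg female 4, and at most 18 in any of the other 13 libraries. Both genotypes held such a library, all 3 were females, and 2 WT and 3 Tg females did not share the level. Elovl3, a fatty acid elongase induced in brown fat by cold, was 10.9, 13.7 and 23.2 CPM in the same 3 libraries and came to no more than 1 count in any other. It passed no filter on low counts, because it was high in fewer libraries than 1 group holds, and was not tested. Cidea, a droplet protein abundant in brown fat, was 58.2, 59.8, 0.107 and 0.166 CPM in WT females, 7.89, 0.286, 0.419 and 0.113 in WT males, 0.0363, 0.502, 0.316 and 68.7 in Tg females, and 1.01, 1.61, 0.608 and 0.0982 in Tg males. Outside the 3 Ucp1 libraries it was highest in WT male 1.

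The other brown fat genes were less exclusive. Kcnk3, a potassium channel of brown adipocytes, was 15.2 to 18.9 CPM in the 3 Ucp1 libraries, 5.39 in WT male 1 and at most 3.91 in the remaining 12. Dio2, the deiodinase that makes active thyroid hormone, was 5.05 to 7.30 CPM in those 3, 0.713 in WT male 1 and at most 2.14 elsewhere. Slc36a2, an amino acid transporter on the surface of brown adipocytes, behaved differently: WT male 1, with 40.1 CPM, lay between Tg female 4 (31.5) and WT female 1 (47.7). Expressed per kilobase of exon, which allows a comparison between genes, Ucp1 reached 154 CPM per kb in Tg female 4, where Adipoq was 60.7 and Fasn 149, while in WT male 1 Ucp1 was 0.327, Adipoq 234 and Fasn 38.7. The median of Ucp1 over the 16 libraries was only 0.0270 CPM per kb, against 34.6 for Adipoq.

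**Figure D2:**
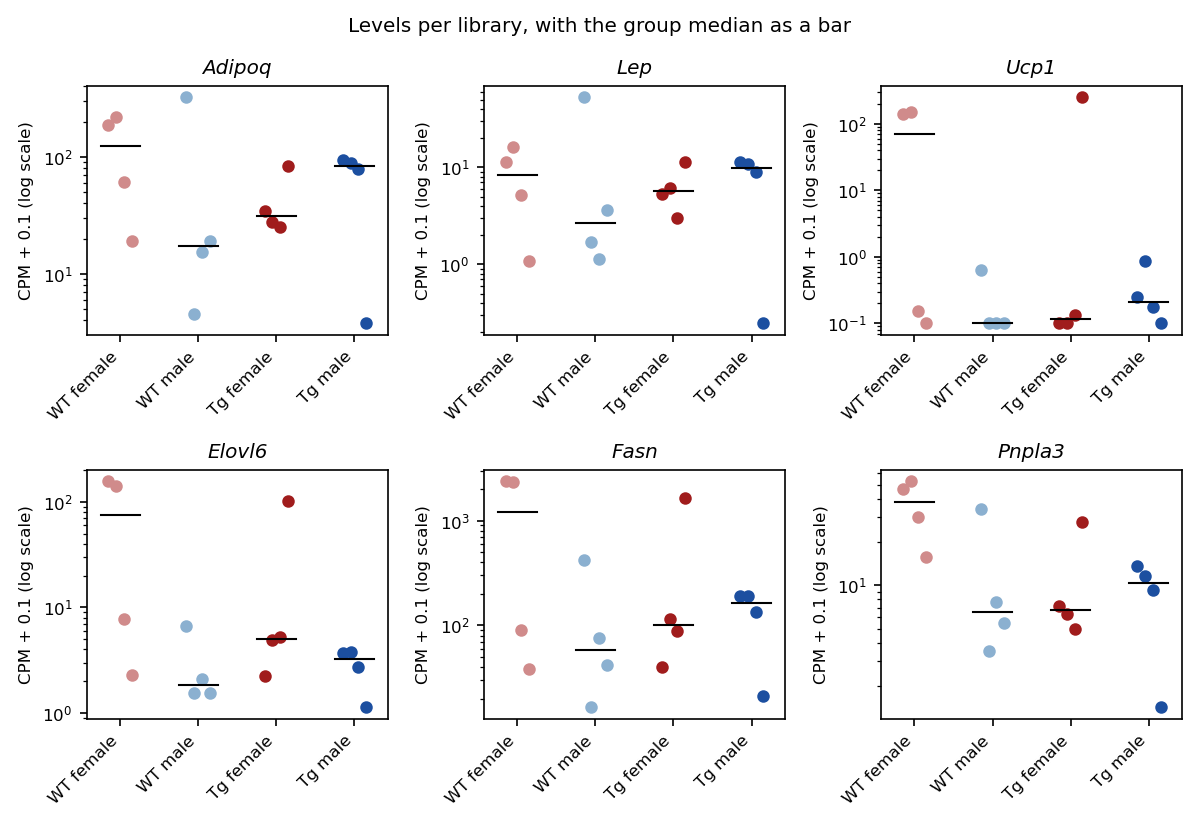
Levels of 6 genes in each library (points) with the group median (bar), as CPM + 0.1 on a log axis, by group. Ucp1 and Elovl6 each show WT female 1, WT female 2 and Tg female 4 far above the rest, while Adipoq and Lep spread continuously and peak in WT male 1.

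Genes of fatty acid synthesis went with Ucp1 in all but 1 case. Fasn encodes fatty acid synthase, which builds palmitate (build mm10, chromosome 11, 120805846 to 120824547, minus strand). It was 2372, 2339, 90.7 and 38.4 CPM in WT females, 424, 16.4, 75.0 and 42.2 in WT males, 40.4, 116, 87.4 and 1634 in Tg females, and 192, 190, 135 and 21.0 in Tg males. Elovl6, which lengthens palmitate to stearate, was 157, 143, 7.69 and 2.21 CPM in WT females, 6.60, 1.43, 2.01 and 1.43 in WT males, 2.14, 4.82, 5.09 and 101 in Tg females, and 3.62, 3.64, 2.62 and 1.03 in Tg males. For both genes the same 3 female libraries were highest in a single step, and WT male 1 lay 3.86-fold or more below them for Fasn and 15.3-fold or more below them for Elovl6. Acly, which supplies cytosolic acetyl-CoA, was 239 to 433 CPM in those 3 libraries and 49.1 in WT male 1. Acaca (acetyl-CoA carboxylase, the committed step) was 308 to 456 and 102 CPM, and Thrsp (a lipogenic regulator responsive to thyroid hormone) 170 to 259 and 39.0. The exception was Scd1, the desaturase that makes oleate: it was 2397 to 4543 CPM in the 3 libraries and 2452 in WT male 1.

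Triglyceride and glycerol genes were mixed. Pck1, which makes glycerol backbones from small precursors, ranged from 2.33 to 469 CPM, and Dgat2, which completes triglyceride, from 14.3 to 170; both were high in WT male 1 as well as in the 3 Ucp1 libraries. Gpd1, which turns a glycolytic intermediate into glycerol phosphate and is abundant in muscle itself (chromosome 15, 99717515 to 99725005, plus strand), hardly varied. It was 1282, 1103, 751 and 964 CPM in WT females, 857, 752, 891 and 787 in WT males, 816, 765, 596 and 1085 in Tg females, and 630, 777, 678 and 583 in Tg males. Its 3 highest libraries were nonetheless the 3 with Ucp1. Car3 (carbonic anhydrase 3), abundant in slow muscle fibres as well as in fat, ranged from 481 to 3840 CPM, and Plin4, a perilipin of small droplets that fibres also make, from 307 to 1065. Plin4, Elovl3 and Acaca each overlap a gene on the opposite strand (Hdgfl2, Pitx3 and Gm11437). The libraries were stranded, but whether the counting used strand is not given in the sources used here.

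In all, WT male 1 lay below each of the 3 Ucp1 libraries for 11 genes, above each for 9 and between them for 13. The 11 were 4 brown fat genes (Ucp1, Elovl3, Dio2 and Kcnk3), Cidea, the fatty acid synthesis genes Fasn, Acaca, Acly, Elovl6 and Thrsp, and Gpd1. Ratios to Adipoq were also taken. Ucp1 was 76.8, 69.8 and 301 per 100 of Adipoq (CPM over CPM) in WT female 1, WT female 2 and Tg female 4, and at most 0.854 in any other library. Fasn was 1270, 1070 and 1950 per 100 of Adipoq in those 3 libraries, and 117 to 571 in the others. Cidec stayed at 56.0 to 127 per 100 of Adipoq in all 16, although Adipoq itself ranged from 3.68 to 323 CPM. The 3 libraries were picked out here by their Ucp1, so these ratios describe them and carry no test.

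**Figure D3:**
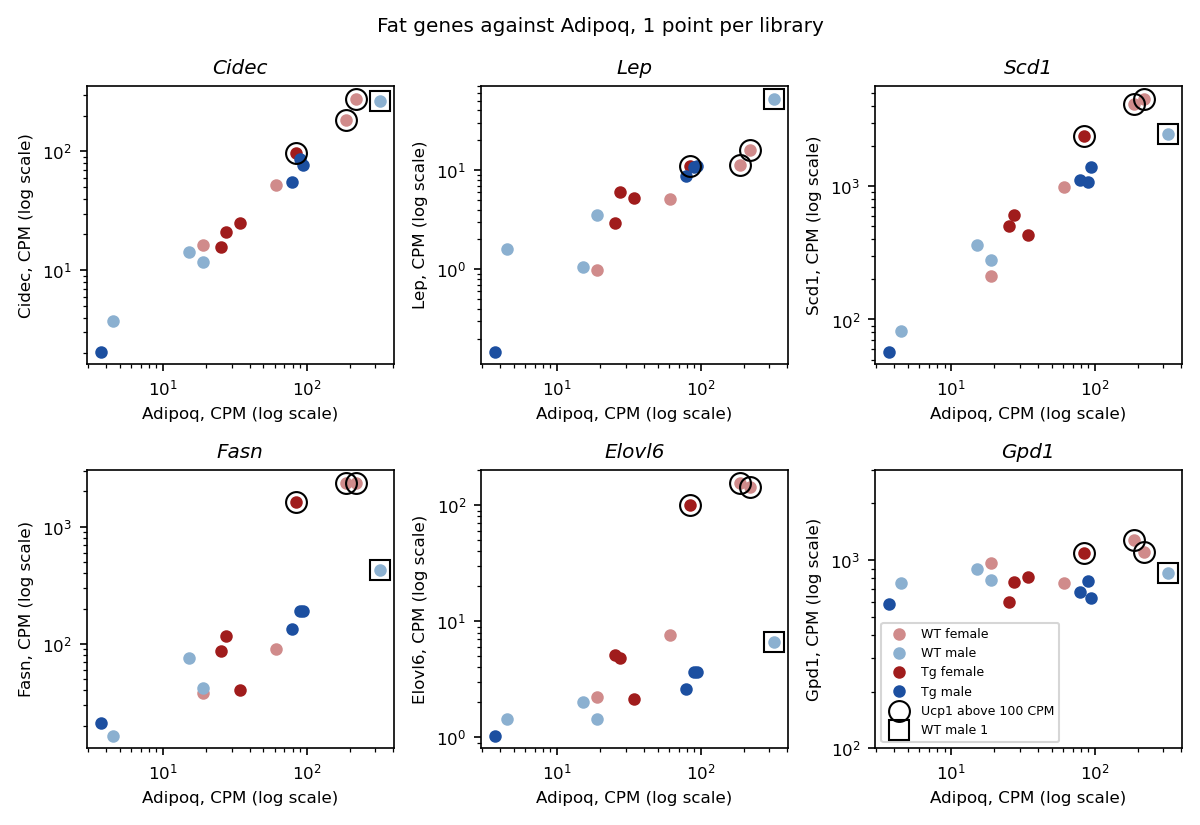
Levels of 6 genes against Adipoq, 1 point per library, CPM on log axes, coloured by group; circles mark the 3 libraries with Ucp1 above 100 CPM and a square marks WT male 1. Cidec rises with Adipoq in a single band, Fasn and Elovl6 form an upper set of the 3 circled libraries above a lower band that includes WT male 1, and Gpd1 is nearly flat.

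To describe how the genes followed fat content, each was regressed on an adipocyte index made only of genes outside the 33. This index was the mean log2 CPM of Adig, Trarg1, Acvr1c, Lgals12 and Hcar1. The model also held 1 mean per group, so a slope describes how a gene moved with the index among mice of the same sex and genotype. A slope of 1 means that the gene doubled when the index doubled. In edgeR's quasi-likelihood test with Benjamini-Hochberg adjustment over all 13666 tested genes, 28 of the 32 tested genes had a slope with an adjusted p under 0.05 (the threshold used throughout), all of them positive. Of all tested genes 7.98% passed in either direction and 6.91% in the positive one. The index genes and the 33 genes were both picked as fat genes, with earlier results of these data known. Mostly positive slopes were thus likely beforehand, and their number is not independent evidence. The median slope of the 32 genes was 0.92, against -0.0022 over all genes.

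Adipokines lay close to 1: Adipoq 1.08 (standard error, SE, 0.05), Retn 1.06, Lep 1.05 and Cfd 1.04. Plin1 (1.19), Cidec (1.17), Adrb3 (1.21), Mrap (an accessory protein of the adrenocorticotropin receptor, 1.12) and Pck1 (1.40, SE 0.10) were similar or steeper. Shallower slopes that passed included Car3 (0.42), Lpl (0.41), Aqp7 (0.34) and Pnpla2 (adipose triglyceride lipase, 0.23); muscle fibres also make Car3, Lpl and Pnpla2. The steepest were Ucp1 (6.95, SE 0.70) and Cidea (2.70, SE 0.50). Not passing were Gpd1 (0.08, SE 0.04, adjusted p = 0.24), Plin4 (0.19, adjusted p = 0.067), Dio2 (0.26, adjusted p = 0.45) and Acly (0.70, adjusted p = 0.071). The fitted value of Ucp1 rests on 3 libraries among many zeros: it was 2.60 with limma-voom and 1.17 without the 3 Ucp1 libraries, and passed in neither. The Cidea slope moved too: it was 1.62 without Tg female 4 and 0.99 without the 3 Ucp1 libraries, below the adipokine slopes of the full fit, though it passed in both. Of the 28 slopes, 26 still passed without the 3 Ucp1 libraries. Without the 4 libraries of highest index (WT male 1, WT female 2, WT female 1 and Tg male 1) 16 of the 28 slopes still passed; those that did not were Lpl, Pnpla2, Aqp7, Car3, Dgat2, Ucp1, Cidea, Kcnk3, Fasn, Acaca, Elovl6 and Thrsp.

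The departure of brown from white genes was then put in 1 model, a step added after the data had been examined: the same regression with log2 CPM of Ucp1 as a second covariate. This slope says how a gene moved with Ucp1 among libraries of equal index, sex and genotype. Outside the 3 Ucp1 libraries, Ucp1 had 0 to 18 counts, where the prior count weighs on log2 CPM. The slope therefore mainly sets those 3 female libraries against the rest, and its size is not a graded response. In males Ucp1 never exceeded 0.762 CPM. Ucp1 and the untested Elovl3 fall out, and 12 of the 31 remaining genes passed (edgeR's quasi-likelihood test, Benjamini-Hochberg adjustment), all with positive slopes. Of all genes 1.99% passed in either direction and 1.53% in the positive one. Of the 5 index genes 1 also rose with Ucp1 in this model, so the index is not neutral to it. Since the split had been seen in the same libraries, these values describe the split and are not independent evidence of it.

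The brown fat genes Kcnk3 (0.33, SE 0.04) and Dio2 (0.27, SE 0.04), rose with Ucp1 at equal index; so did Cidea (0.64, SE 0.04) and, more weakly, the brown transporter Slc36a2 (0.11, SE 0.02). Of the 6 fatty acid synthesis genes, 5 rose as well: Elovl6 (0.39, SE 0.03), Fasn (0.32, SE 0.05), Acly (0.31, SE 0.03), Thrsp (0.28, SE 0.02) and Acaca (0.22, SE 0.02), while Scd1 did not pass (0.06, SE 0.04, adjusted p = 0.40). The slopes of Mrap (0.13), Lipe (0.10) and Fabp4 (0.09) were small but passed. All 4 adipokines stayed near 0, with Cfd at 0.01, Adipoq at -0.02, Retn at -0.02 and Lep at -0.03, each with an SE of 0.05 or less and an adjusted p of 0.705 or more. Acly and Dio2, which did not pass against the index in all 16 libraries, passed here. Without the 3 Ucp1 libraries, Acly also passed edgeR's test against the index (0.29, adjusted p = 0.016). Without Tg female 4, 9 of the 12 passed. Without the 4 libraries of highest index 8 did, and Fasn, Dio2, Slc36a2 and Mrap were the 4 that did not. That subset lacks WT female 1 and WT female 2, so its 8 slopes rest on high Ucp1 in Tg female 4 alone.

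**Figure D4:**
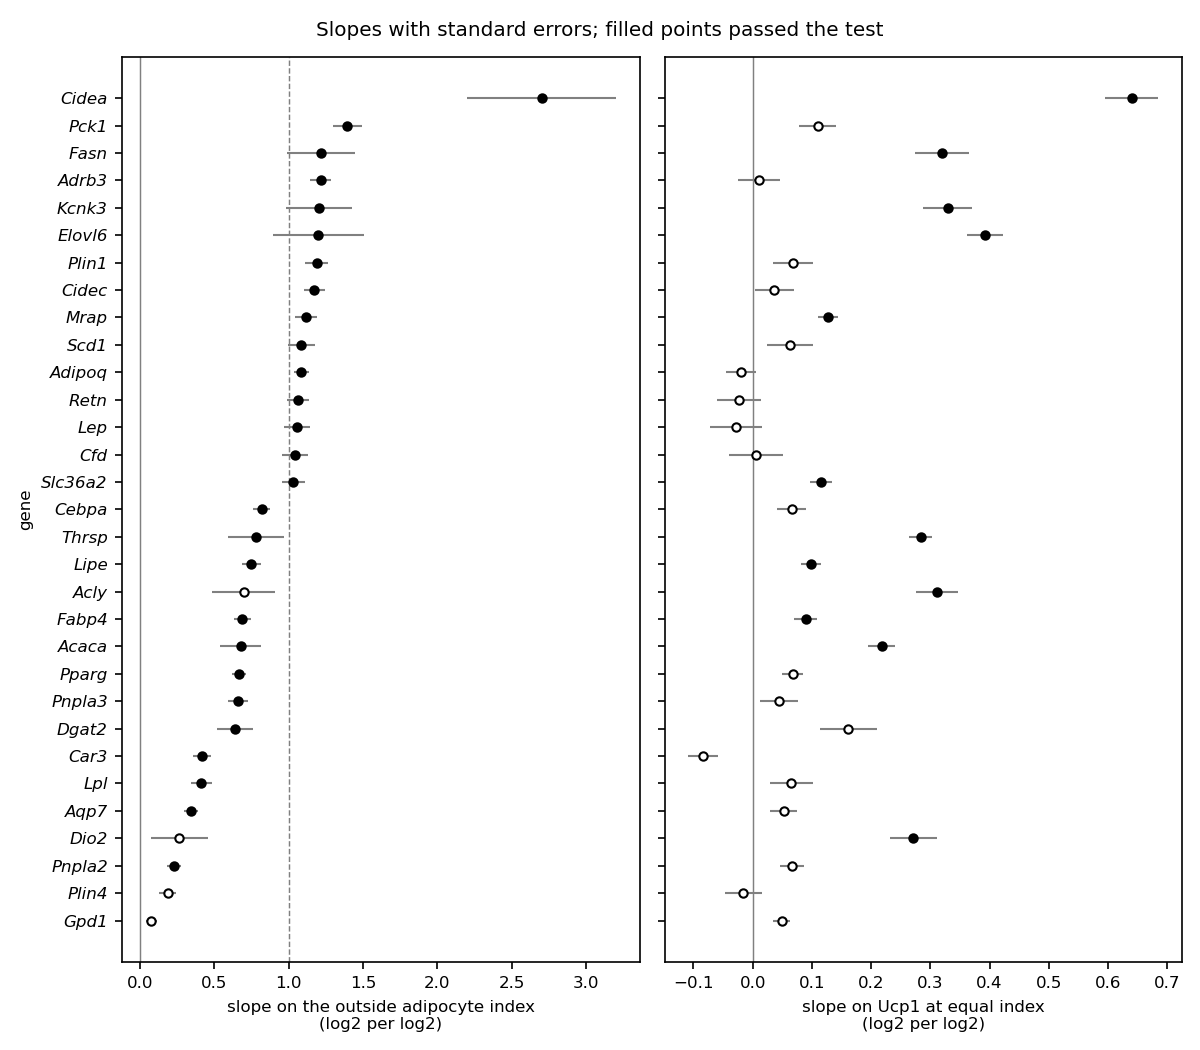
Slopes with standard errors for the 31 tested genes other than Ucp1, on the outside adipocyte index (left) and on Ucp1 at equal index (right), in log2 units of the gene per log2 unit; filled points passed edgeR's test at an adjusted p under 0.05, and the dashed line marks a slope of 1. Adipoq, Lep, Retn and Cfd lie near 1 on the left and near 0 on the right, and Cidea, Elovl6, Kcnk3, Fasn, Acly, Thrsp, Dio2 and Acaca lie furthest right in the right panel.

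No fat gene passed the genotype comparison. With edgeR's quasi-likelihood test on all 16 libraries and Benjamini-Hochberg adjustment, 0 of the 32 differed between Tg and WT averaged over the sexes, although 30.4% of all tested genes did. At an unadjusted p under 0.05 there was 1, Gpd1, at -0.32 (log2, Tg minus WT, SE 0.12, adjusted p = 0.059); Gpd1 passed with DESeq2 at -0.34 (adjusted p = 0.022). Shares of all genes at an unadjusted p under 0.05 or with DESeq2 were not taken, here or below. The median log2 difference of the 32 genes was -0.60, against -0.01 over all genes. Single estimates were imprecise: Adipoq differed by -0.97 (SE 0.86, adjusted p = 0.43), Lep by -0.67 (SE 0.86), Fasn by -0.71 (SE 1.04) and Ucp1 by 0.34 (SE 2.94). Without the 4 libraries of highest index, 3 of which are WT, 3 genes passed and all were higher in Tg: Cebpa (1.56), Dgat2 (1.52) and Pnpla2 (0.55). The share of all genes passing in that subset was not taken, so this count has no background to be read against.

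Within females 0 of the 32 genes passed (17.7% of all genes did), and 1 had an unadjusted p under 0.05, Plin4. Leaving out Tg female 4, 3 genes were lower in Tg than in WT females by edgeR's test: Ucp1, Elovl6 (-4.28, adjusted p = 0.044) and Gpd1 (-0.50, adjusted p = 0.048). Tg female 4 was the only Tg female with high Ucp1 and Elovl6, while WT female 1 and WT female 2 stayed in. The direction for Ucp1 and Elovl6 thus follows from the library left out. The share of all genes passing in that subset was not taken. Within males 0 passed (18.2% of all genes did) and none had an unadjusted p under 0.05. The test of a sex difference in the genotype effect passed for none of the 32, against 0.00732% of all genes. None of the 32 had an unadjusted p under 0.05. The balance of brown to white, taken as log2 CPM of Ucp1 minus that of Adipoq, averaged -5.95 in WT and -6.62 in Tg. The difference of -0.67 had p = 0.79 in an exact two-sided permutation test within the sexes over 4900 arrangements of the libraries. In most libraries Ucp1 was at or near 0 counts, so there the value was set by Adipoq and the prior count. Tg male 4 and WT male 2, with 0 Ucp1 counts, stood at -5.48 and -5.75, above WT male 1 at -9.03 with 12 counts. The test therefore cannot decide whether the balance of brown to white differed.

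Sex differences were also unresolved. Comparing males with females, 0 of 32 genes passed in WT (3.67% of all genes did) and 0 in Tg (0.527%). At an unadjusted p under 0.05, 6 genes were lower in WT males than in WT females: Ucp1, Elovl6, Acly, Acaca, Thrsp and Dio2. In Tg, the 3 were Ucp1, Elovl6 and Dio2. Elovl6 had the smallest p, at -4.76 (log2, SE 1.53, adjusted p = 0.13 with edgeR), and DESeq2 called Elovl6 (-4.74, adjusted p = 0.0035) and Acly (-2.91, adjusted p = 0.045). All of these are genes high in the 3 Ucp1 libraries, 2 of which are among the 4 WT females and 1 among the 4 Tg females. The counts at an unadjusted p and with DESeq2 have no share of all genes to be read against.

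Holding the adipocyte index equal narrowed the genotype estimates of the white genes. Adipoq moved to -0.20 (SE 0.14), Lep to 0.13 (SE 0.26), Plin1 to 0.02 (SE 0.22) and Cfd to 0.12 (SE 0.24), and none of these passed. Of the 32 genes, 3 passed (edgeR's quasi-likelihood test, Benjamini-Hochberg adjustment), against 33.7% of all genes: Pnpla3 and Gpd1 were lower in Tg and Ucp1 was fitted as higher. Pnpla3 encodes an acylhydrolase of the droplet, also called adiponutrin (chromosome 15, 84167837 to 84187236, plus strand). It was 46.6, 52.6, 29.5 and 15.7 CPM in WT females, 33.9, 3.38, 7.51 and 5.39 in WT males, 7.05, 6.22, 4.84 and 27.4 in Tg females, and 13.6, 11.5, 9.12 and 1.33 in Tg males. The groups overlapped in CPM. Among females, WT female 4 held 15.7 CPM of Pnpla3 at 19.0 of Adipoq, and Tg females 1 to 3 held 4.84 to 7.05 at 25.1 to 34.4 of Adipoq. Among males, WT male 4 held 5.39 at the same 19.0 of Adipoq, so mice of the same genotype also differed at like Adipoq. The sexes were not tested apart at equal index. Averaged over the sexes at equal index it fell in Tg by 0.98 on the log2 scale (SE 0.21, adjusted p = 0.0025). It passed in all 22 alternative settings, with estimates from -1.53 to -0.86. This fit gives both genotypes the same slope, while the estimated slope of Pnpla3 was steeper in Tg by 0.50 (SE 0.11). The fall of 0.98 may thus not hold at every level of the index.

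Gpd1 fell in Tg by 0.32 at equal index (log2, SE 0.11, adjusted p = 0.032), the size seen without the index, and passed in 11 of 22 alternatives. The Ucp1 estimate of 8.75 (SE 2.09, adjusted p = 0.018) was not stable. It was -2.45 without WT male 1 (adjusted p = 0.99), 2.94 without Tg female 4, 0.48 without the 3 Ucp1 libraries and 1.10 with limma-voom, none of which passed. With most libraries at or near 0 counts, it gives no usable fold. The index itself is not neutral: 1 of its 5 genes, Adig, was higher in Tg at equal index (0.90, SE 0.28, adjusted p = 0.022). With log2 CPM of Adipoq as the index instead, the same 3 genes passed and Cfd joined them (0.34, adjusted p = 0.041).

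**Figure D5:**
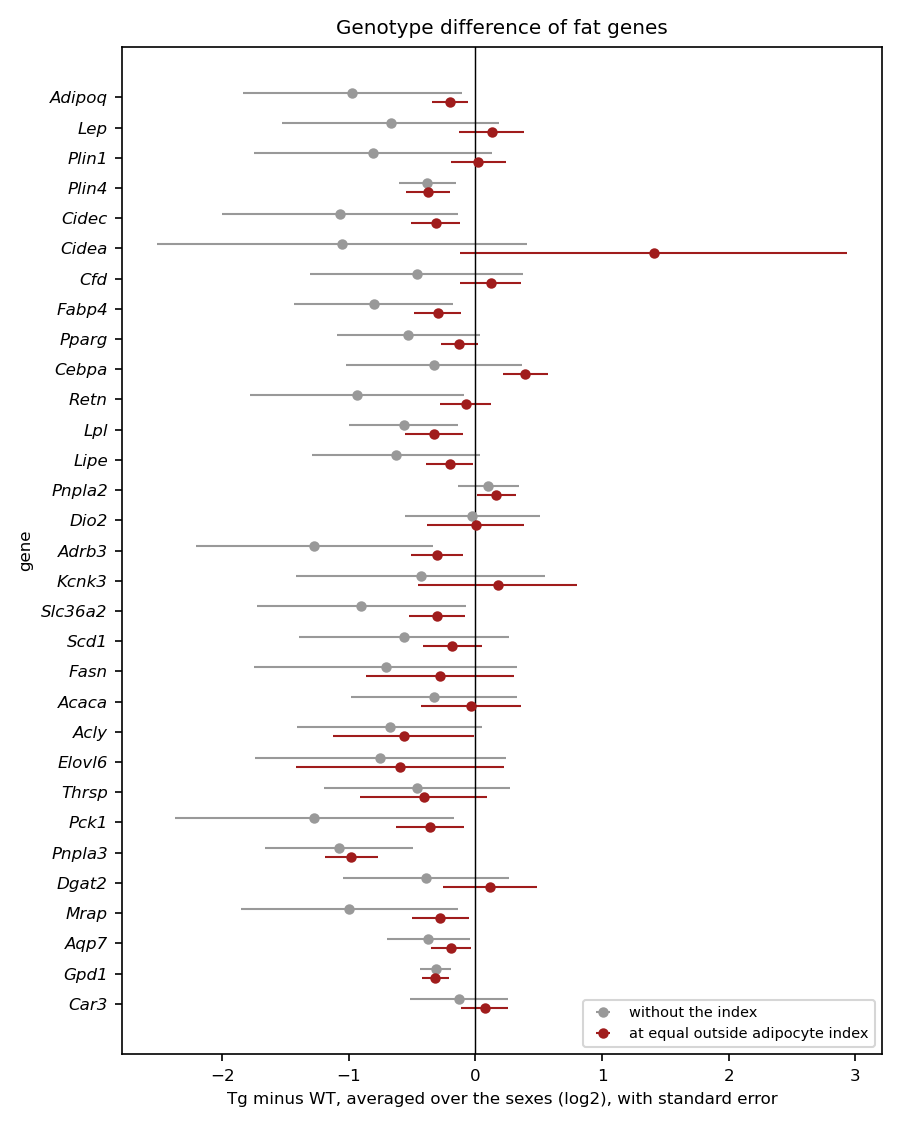
Tg minus WT averaged over the sexes (log2, with standard errors) for the tested genes other than Ucp1, without the index (grey) and at equal outside adipocyte index (red). The red intervals of Adipoq, Lep, Plin1 and Cfd are narrow and close to 0, and Pnpla3 lies at -0.98 with a narrow interval.

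The difference of the index slope between genotypes passed edgeR's test for 0 of the 32 genes (0.0439% of all genes passed). Of the 32, 4 had an unadjusted p under 0.05, a level at which the share of all genes was not taken. These were Pnpla3 (slope steeper in Tg by 0.50, SE 0.11, adjusted p = 0.40), Cebpa (-0.31, SE 0.10), Aqp7 (-0.24, SE 0.09) and Cidec (0.34, SE 0.14).

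Related genes outside the 33 were read in the same fits, in which 7.98% of all genes passed against the index and 1.99% against Ucp1 at equal index. Of 22 lipogenic regulators and enzymes, 10 rose and 1 (Gpam) fell with the index, and 8 rose with Ucp1 at equal index, among them Agpat2 (an acyltransferase of triglyceride synthesis, 0.26, SE 0.02), Slc25a1 (the mitochondrial citrate carrier, 0.25, SE 0.03) and G6pdx (which supplies NADPH, 0.13, SE 0.02). Of 11 brown fat genes tested, 3 rose with Ucp1 at equal index: Otop1 (a proton channel, 0.39, SE 0.04), Letmd1 (a mitochondrial protein, 0.18, SE 0.01) and S100b (0.19, SE 0.03). Letmd1 was 31.1, 35.4 and 47.1 CPM in WT female 1, WT female 2 and Tg female 4, and 8.34 to 12.1 in the other 13. Of the 15 listed brown fat genes in the files, 4 had too few counts to be tested; among these Slc27a2, an acyl-CoA synthetase, was 3.59, 5.21 and 8.04 CPM in the same 3 libraries and at most 0.169 elsewhere. Zic1, a transcription factor of classical brown fat, was no higher in those 3 libraries (0.268, 0.365 and 0.577 CPM) than elsewhere (0.0839 to 1.14), and none of 5 beige adipocyte genes rose with Ucp1 at equal index. Among 11 droplet and lipolysis genes, 2 did, Plin2 (a perilipin of many cell types, 0.15) and Mgll (monoacylglycerol lipase, 0.09), and of 8 lipid uptake genes 0 did.

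Some genes of these lists differed by genotype, in a comparison that 30.4% of all genes passed. Averaged over the sexes, 7 of the 22 lipogenic genes passed, a share near that of all genes. All 7 were lower in Tg, led by Me1 (malic enzyme, a source of NADPH, -0.75, SE 0.10, adjusted p = 2.08e-05), Pdk1 (-0.26, SE 0.05, adjusted p = 0.0012) and Gpam (the first acyltransferase of glycerolipid synthesis, -0.40, SE 0.08, adjusted p = 0.0019). Among 11 droplet and lipolysis genes G0s2, which inhibits the lipase encoded by Pnpla2, rose in Tg by 2.54 (SE 0.51, adjusted p = 0.0020), and Abhd5, which activates that lipase, fell by 0.31 (adjusted p = 0.0043). G0s2 was 2.65 to 24.7 CPM in the 8 WT libraries and 31.8 to 69.2 in the 8 Tg libraries, with no overlap. Of 8 lipid uptake genes Lmf1, a maturation factor for lipases, rose (0.60, adjusted p = 3.33e-06) and Vldlr fell (-0.52, adjusted p = 1.58e-05). The Vldlr value averages unlike sexes. Vldlr was 486 to 611 CPM in WT males and 276 to 316 in Tg males. In females it overlapped, with 238 to 303 in WT and 218 to 257 in Tg. Of 11 brown fat genes Cox8b, a cytochrome oxidase subunit also made by muscle, fell (-0.45, adjusted p = 0.00018). Of 5 beige genes 0 passed averaged over the sexes; Tbx1, a transcription factor, was 0.28 higher in Tg (adjusted p = 0.060) and passed at equal index (0.29, adjusted p = 0.040). All are from edgeR's quasi-likelihood test with Benjamini-Hochberg adjustment over all tested genes.

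Markers of other cell types were summed in each library. The sum of simple epithelial markers (Epcam, Krt8, Krt18, Krt19 and Csn3, the 5 of 7 listed in the files) was 48.9 CPM in WT female 2, 4.40 in WT female 1 and 0.414 to 1.52 in the other 14. Tg female 4, where Ucp1 was highest, had 1.48 CPM of these markers, within the range of libraries without Ucp1. Over the 16 libraries the keratinocyte sum was 8.61 to 16.5 CPM, the endothelial sum 199 to 302, the Schwann cell sum 66.3 to 174, the smooth muscle sum 343 to 619 and the sum of fibroblasts and adipocyte progenitors 455 to 1486. WT female 2 was the highest library for each of these 5 sums. Macrophage markers came to 34.7 to 208 CPM and red blood cell markers to 60.2 to 139. Of the genes on these lists other than epithelium, Cd68, Dpt and Pdgfrb passed against the index or Ucp1, each with a positive slope. The part of these cells in the fat gene levels was not tested.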

How the data were processed

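Quadriceps RNA of 16 mice was sequenced as stranded poly(A) libraries, per the labels' protocols. The tools listed are cutadapt 1.2.1, TopHat2, Bowtie2 and bcl2fastq, on the build mm10, per the submitters' processing notes; the program that counted reads per gene is not given in the sources used here. The deposited values were taken as estimated counts of the authors, since they are partly fractional (93.53% of nonzero values lie within 0.01 of a whole number) with totals that differ between libraries. They were rounded to whole numbers. Within groups, the 24 pairs of libraries had correlations of 0.955 to 0.992 across genes and a lowest median chi-square per gene of 1.22, against 0.455 for 1 library sequenced again.

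The 33 genes and all lists were chosen with earlier results of these data known. Tests used edgeR 4.0.16 in R 4.3.3, with TMM factors of 0.887 to 1.10, filterByExpr (minimum count 10, total 15), 1 mean per group over all 16 libraries and robust quasi-likelihood F tests; the threshold was an adjusted p (Benjamini-Hochberg) of 0.05. SE is the log2 estimate divided by the square root of F. The index used log2 CPM with a prior count of 2. Values in every library are given for Adipoq, Ucp1, genes called by genotype with or without the index, and the highest and lowest slopes; other genes with such values were picked after these were seen. Outside lists name up to 3 called genes each by genotype. Positions are from GENCODE M21 and all 33 genes matched. Alternatives were other size factors (RLE), no filter on low counts, limma-voom (limma 3.58.1), DESeq2 1.42.0, Adipoq as the index, and leaving out libraries. The fits were tested on simulated data.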

Additional observations from a re-analysis of the deposited data

Results flagged for a closer look

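Among 128 sets of 4 libraries (32 genes in 4 groups), 29 held a library far from the other 3 of its group on the log2 CPM scale by Dixon's test; chance alone gives about 1 in 20. All 29 lay in 3 libraries, and the genes are not independent of each other. The share of such sets over all tested genes was not taken, so it is not known whether the fat genes exceed it.

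Tg male 4 was far below the other Tg males for 14 genes: Adipoq at 3.68 CPM, Lep at 0.147, Plin1 at 1.42, Cidec at 2.06, Cfd at 21.3, Pparg at 2.90, Cebpa at 8.54, Retn at 1.18, Adrb3 at 0.246, Slc36a2 at 1.23, Scd1 at 57.3, Fasn at 21.0, Pck1 at 3.63 and Mrap at 0.344. WT male 1 was far above the other WT males for 7 genes: Fabp4 at 1510 CPM, Pparg at 22.5, Cebpa at 73.0, Lipe at 242, Pnpla2 at 337, Aqp7 at 36.3 and Ucp1, whose 0.535 CPM is 12 counts. Tg female 4 was far above the other Tg females for 8 genes: Ucp1 at 252 CPM, Fabp4 at 623, Pparg at 13.9, Lipe at 136, Slc36a2 at 31.5, Acaca at 308, Thrsp at 170 and Mrap at 9.07. The high Ucp1 of WT female 1 and WT female 2 does not appear here, because 2 high libraries of 4 leave no single one apart.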

How the results depend on the processing

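No paired analysis was possible because the labels carry no replicate numbers. Averaged over the sexes, the count of genes passing by genotype was 0 as reported, 1 with RLE factors, 1 with DESeq2 and 1 without the 3 Ucp1 libraries (Gpd1 each time), and 3 without the 4 libraries of highest index, where Cebpa (1.56) and Dgat2 (1.52) turned positive. Leaving out 1 library at a time gave 0 to 2 (2 without Tg male 2, Plin4 and Gpd1), 0 to 3 in females (3 without Tg female 4), and 0 to 2 for sex in WT (Car3 without WT male 1; Ucp1 and Elovl6 without Tg female 4); DESeq2 gave 2 there. The slope on the index passed for 25 to 30 genes when 1 library was left out, Elovl3 included where it could be tested, and for 16 without the 4 libraries of highest index. At equal index 2 to 6 genes passed (6 without Tg male 2), and the Ucp1 estimate reversed to -3.505 without the 4 libraries of highest index; it was -2.45 (without WT male 1) to 10.48 (without Tg male 1) when single libraries were left out. The slope on Ucp1 passed for 9 to 14 genes when 1 library was left out. It passed for 8 without the 4 libraries of highest index, where only Tg female 4 had high Ucp1. Ucp1 minus Adipoq ranged from -1.90 to -0.01 when 1 library was left out. The shares of all genes passing in these settings were not taken, so the counts have no background to be read against. The causes of these changes were not tested. Depth limits Ucp1, Elovl3 and Cidea, which are at or near 0 counts in most libraries.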
